A study of Mus musculus with 6 samples.

Results

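The secreted Wnt antagonists are proteins that leave the cell and dampen Wnt signalling in the space around it. The 10 genes described here, Wif1, Dkk1, Dkk2, Dkk3, Sfrp1, Sfrp2, Sfrp4, Sfrp5, Frzb and Sost, were chosen by symbol, and all 10 were among the 25899 genes of the deposited table. RNA came from the apical portion of the dental mesenchyme, cut from mandibular first molars on postnatal day 7.5, when root formation begins. The 3 mutant libraries came from Gli1-CreER;Bmpr1afl/fl mice, in which a tamoxifen-inducible Cre under Gli1 control can delete the floxed BMP receptor gene Bmpr1a in Gli1-expressing cells. The 3 control libraries came from Bmpr1afl/fl littermates, which carry the same floxed alleles but no driver in their genotype label. All mice were of a mixed C57Bl6/129S6/SvEvTac background. The labels give no tamoxifen schedule and do not say whether a library is 1 animal, so the p-values measure only the spread between these samples. Control 3 and mutant 3 are littermates from litter 2; the other 4 libraries are from litter 1.

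Wnt ligands act through Frizzled receptors with the co-receptors Lrp5 and Lrp6. Wif1 and the Sfrp proteins, with Frzb among them, bind Wnt ligands themselves, the Sfrp proteins through a domain like the ligand-binding part of Frizzled. Dkk1, Dkk2 and sclerostin, the product of Sost, bind the co-receptors instead, and Kremen receptors take part in Dkk action. Dkk3 is a divergent Dkk relative whose effect on Wnt signalling is less settled. In teeth and bone, Wnt and BMP signals are both needed for odontoblast and root formation, and several of these antagonists are themselves under Wnt or BMP control.

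The 6 libraries differed in makeup as well as genotype, at 15916045 to 20609420 reads on genes each. The 7 markers of dental mesenchyme were each above 3 reads in every library and summed to 595 to 967 RPM, reads per 1000000 mapped reads. The 9 enamel epithelium markers summed to 2305 to 5346 RPM in controls 1 and 2 and mutant 2, and to 39039, 49114 and 20534 RPM in control 3, mutant 1 and mutant 3. The 5 odontoblast markers summed to 523 and 1760 RPM in the litter 2 libraries and to at least 4754 RPM in those of litter 1. Blood markers were highest in control 3, at 1417 RPM against 130 to 428 RPM elsewhere. The summed level of each of the 12 marker lists overlapped between the genotypes, though several lists had changes on 1 side of 0, as given beside the genotype comparison. As means ± SD of n = 3 libraries, the form used for all group values below, Bmpr1a measured 136 ± 14.4 RPM in controls against 113 ± 6.51 RPM in mutants, and Gli1 43.0 ± 18.0 against 25.0 ± 4.69 RPM.

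The stretches of DNA before 3 of the genes are shown first, because Wif1 and Dkk2 stood on opposite sides of the genotype comparison and Sost was read mainly in 1 library. They come from RefSeq promoters on GRCm38.p6, the assembly that mm10 names, and are given 5′ to 3′ on the gene's strand, ending before the first start annotated in RefSeq or GENCODE. Capitals mark the core of the TCF/LEF site, CTTTG or its reverse complement CAAAG, the letters read by the transcription factors at the end of the Wnt pathway.
Wif1, chr10:121033754-121033959, plus strand: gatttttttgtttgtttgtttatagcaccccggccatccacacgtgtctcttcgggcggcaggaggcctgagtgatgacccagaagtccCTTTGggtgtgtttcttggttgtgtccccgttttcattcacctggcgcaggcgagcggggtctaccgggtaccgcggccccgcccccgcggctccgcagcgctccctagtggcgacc
Dkk2, chr3:132085042-132085291, plus strand: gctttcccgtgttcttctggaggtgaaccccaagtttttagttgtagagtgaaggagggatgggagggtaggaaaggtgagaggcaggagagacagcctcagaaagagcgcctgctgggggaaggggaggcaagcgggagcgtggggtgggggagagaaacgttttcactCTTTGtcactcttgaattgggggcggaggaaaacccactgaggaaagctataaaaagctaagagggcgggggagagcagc
Sost, chr11:101967016-101967265, minus strand: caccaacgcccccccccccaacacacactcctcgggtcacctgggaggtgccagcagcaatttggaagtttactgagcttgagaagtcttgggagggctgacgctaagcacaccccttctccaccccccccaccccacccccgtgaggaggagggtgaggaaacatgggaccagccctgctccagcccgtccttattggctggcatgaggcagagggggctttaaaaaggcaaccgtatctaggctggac
The stretches before Wif1 and Dkk2 hold 1 such core each, and that before Sost holds 0. Over the 300 bases around the start, searched on both strands, the core lies in 53.9% of all 32851 promoters and in 4 of the 7 members with a promoter entry (Dkk1, Dkk2, Frzb and Wif1). The GC-rich Smad element GGCGCC, tied to BMP signalling, lies in 11.9% of all promoters and in 0 of these 7. The short Smad box GTCT (reverse AGAC) lies in 88.0% of all promoters and in 7 of the 7. These matches are letters in a window and not measured binding. Dkk3, Sfrp1 and Sfrp4 had no entry.

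Wif1 was the most abundant member, and control tissue held more of it per kilobase of exon than of any other member. Divided by exon length in GENCODE M21, control levels were 273 ± 53.4 RPM per kilobase for Wif1, 68.8 ± 9.10 for Dkk3, 64.5 ± 76.3 for Sfrp5, 54.4 ± 13.9 for Sfrp2, 39.4 ± 6.74 for Sfrp1 and 22.2 ± 9.77 for Frzb. Below these stood Dkk2 at 8.87 ± 5.23, Dkk1 at 5.59 ± 4.41, Sfrp4 at 2.50 ± 2.45 and Sost at 0.598 ± 0.992 RPM per kilobase. Among neighbours in this order, only the ranges of Wif1 and Dkk3, and of Frzb and Dkk2, lay apart in controls. In mutants Wif1 again came first, at 160.1 ± 43.6 RPM per kilobase, and Dkk1, Sfrp4 and Sost, in that order, came last with ranges apart. Wif1 made up 28.7% to 52.9% of the summed RPM of the 10 genes, which was 1250.5, 1296 and 1620.3 RPM in controls 1 to 3 and 822, 1044 and 1037 RPM in mutants 1 to 3. Without Wif1 these sums overlapped between the genotypes, at 765, 610 and 913 RPM in controls 1 to 3 and 500, 562 and 739 RPM in mutants 1 to 3.

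**Figure D1:**
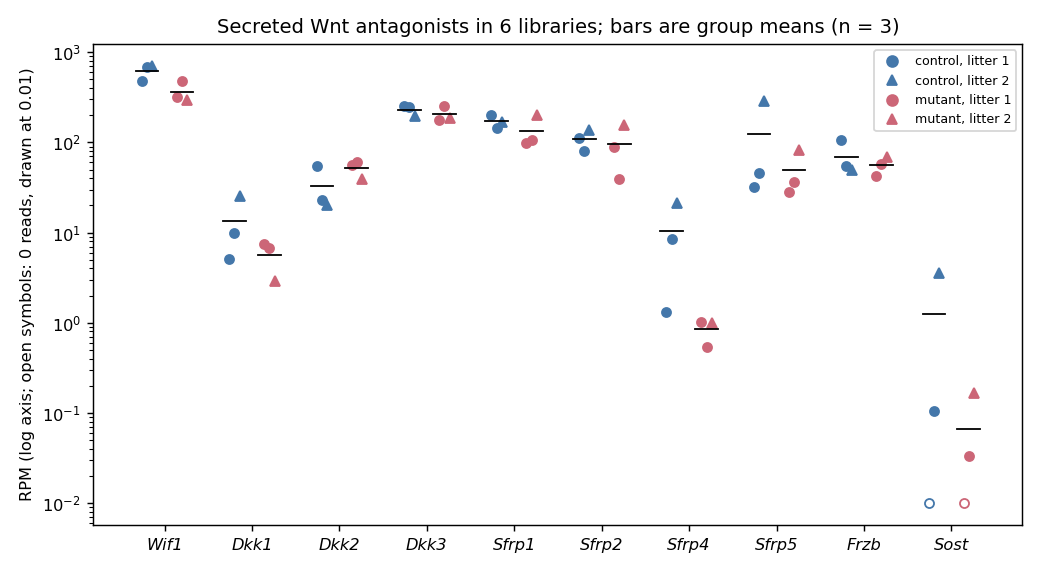
Level of each antagonist in RPM on a log axis for the 3 control (blue) and 3 mutant (red) libraries, with circles for litter 1, triangles for litter 2, bars for group means and open symbols for 0 reads. Wif1 and Sfrp4 are the members whose groups do not overlap, and control 3 is the highest library for Wif1, Sfrp4, Sfrp5, Dkk1 and Sost.

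The comparison of mutants with controls asks how loss of the BMP receptor in the Gli1 lineage alters gene expression in the forming root. No antagonist passed the test: of the 9 members with a mean of at least 1 RPM, 0 had an adjusted p under 0.05, against 0.0% of all 14444 genes tested (limma with Benjamini-Hochberg adjustment; 0 also with limma voom on the recovered reads). Sfrp4 and Wif1, 2 of the 9, had an unadjusted p under 0.05, against 1.05% of all genes, and their groups were also those that did not overlap, against 2.64% of all genes. The change was below 0 for 8 of the 9 members, with Dkk2 the exception (7 or 8 of 9 with any 1 library left out), and 54.4% of all genes were below 0. The median change of the 9 was -0.41 and that of all genes -0.01, both as mutant minus control in log2(RPM + 1), a scale on which low genes appear to change less than they do. With 1 library left out, the members' median ran from -0.65 (without mutant 3) to -0.33 (without mutant 2). Sfrp4 passed the filter on low values through its controls alone, so these counts describe the list and support nothing further. Markers of other cell types also lay on 1 side of 0 in the same fit. All 9 enamel epithelium markers had a change above 0, with a median of 1.21. The tested markers were below 0 for 5 of 5 odontoblast genes (median -0.71), 5 of 5 bone genes (median -0.55) and 4 of 4 cartilage genes (median -0.53), and for 5 of 7 dental mesenchyme genes (median -0.23). Of these, 2 bone genes (Ibsp and Spp1) and 2 dental mesenchyme genes had an unadjusted p under 0.05. The 4 tested glial genes were split, 2 above and 2 below 0 (median -0.17, range -0.71 to 0.69), and 2, both below 0, had an unadjusted p under 0.05. None of the genes of these 6 lists had an adjusted p under 0.05 (limma with Benjamini-Hochberg). The directions of the enamel, odontoblast, bone and cartilage lists were the same under the 3 other scalings. With 1 library left out, the enamel median ran from 0.23 (without control 2) to 1.98 (without control 3) and the bone median from -1.50 (without mutant 1) to 0.77 (without mutant 3). The odontoblast median ran from -0.68 (without mutant 1) to -0.30 (without control 2), and the cartilage median from -1.004 (without mutant 3) to -0.36 (without control 2). The dental mesenchyme median ran from -0.44 (without mutant 3) to -0.09 (without control 1). In litter 1 alone the odontoblast median was -0.07 (4 of 5 below 0) and the bone median 0.46 (2 of 5 below 0). The bone median was the change of Phex both over all libraries (-0.55) and in litter 1 (0.46). Ibsp and Spp1 were below 0 within litter 1 too, at -0.84 and -2.23. The enamel, cartilage and dental mesenchyme medians there were 1.53, -1.26 and -0.38, and that of the members -0.55. The part of these shifts in the antagonists' changes was not tested. In a bulk library, fewer cells of a type and less RNA per cell cannot be told apart.

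Wif1 (ENSMUSG00000020218, chr10:121033960-121100650), which encodes a secreted protein with a Wnt-binding WIF domain, was at 485, 686 and 707 RPM in controls 1 to 3 and at 322, 482 and 298 RPM in mutants 1 to 3. Every mutant lay below every control, though control 1 and mutant 2 were nearly level. The group means were 626 ± 122 and 367 ± 100.1 RPM, a log2 change of -0.78 (SE 0.26, 95% interval -1.40 to -0.16, unadjusted p 0.0198, adjusted p 1.00 by limma with Benjamini-Hochberg). By litter, the change was -0.55 in litter 1 and -1.24 in litter 2, the latter from 1 library per genotype. Wif1 differed little between the litters as a whole, at a mean of 494 RPM in litter 1 and 503 RPM in litter 2. Without control 2, control 3, mutant 1 or mutant 3 its unadjusted p was 0.056 to 0.062, and without control 1 or mutant 2 it was 0.0159 and 0.0091.

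Sfrp4, a secreted Frizzled-related protein known from bone and periosteum, showed the widest range of the tested members, 40.4-fold between the lowest and the highest library. It was at 1.32, 8.53 and 21.5 RPM in controls 1 to 3 (40, 244 and 609 reads) and at 1.03, 0.532 and 1.01 RPM in mutants 1 to 3 (29, 16 and 24 reads). Controls 2 and 3 were high, while control 1 stood close to the mutants. The log2 change was -2.11 (SE 0.74, 95% interval -3.85 to -0.36, unadjusted p 0.0242, adjusted p 1.00 by limma with Benjamini-Hochberg). It was -1.41 within litter 1 and -3.49 within litter 2. The unadjusted p was 0.0764 with limma voom, and 0.0515 to 0.0653 without control 3, mutant 1 or mutant 2. It was 0.000227 without control 1, at a change of -2.99, and 0.0472 and 0.0478 without control 2 and without mutant 3.

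Over the 6 libraries, the genes whose log2 levels were most like those of Sfrp4 among 14443 others were Vsnl1, a neuronal calcium sensor (Pearson's r 0.994, Spearman's rho 0.77), Ibsp, which encodes bone sialoprotein (r 0.986, rho 1.00), and Ckap4, a membrane protein of the endoplasmic reticulum (r 0.985, rho 0.60). With 6 libraries 27 genes had an r above 0.95, so the ranking is only a description. Ibsp was at 35.5, 65.9 and 154 RPM in controls 1 to 3 and at 29.9, 23.6 and 25.7 RPM in mutants 1 to 3. Spp1, which encodes osteopontin, was at 4.54, 96.1 and 159 RPM in controls 1 to 3 and 3.36 to 5.20 RPM in mutants. The order of libraries for Sfrp4 was therefore that of Ibsp, and controls 2 and 3 were the high libraries for Spp1 too. The 7 bone markers summed to 850, 1849.5 and 1151 RPM in controls 1 to 3 and to 2099.6, 1665 and 193 RPM in mutants 1 to 3. The sum was thus highest in mutant 1 and lowest in mutant 3, which is not the order of Sfrp4. Ibsp and Spp1 made up little of it in mutant 1, at 29.9 and 4.62 RPM. Phex, from the same list, was highest in mutant 1 (725 RPM) and lowest in mutant 3 (18.2 RPM). The odontoblast gene Dspp had the same highest and lowest libraries (6872 and 113 RPM). The 5 bone markers tested, Ibsp and Spp1 among them, each had a change below 0. The part of bone tissue in the Sfrp4 difference was not tested.

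Sost, whose product sclerostin is made mainly by osteocytes, was nearly absent from the reads outside 1 library. It had 0, 3 and 102 reads in controls 1 to 3 and 0, 1 and 4 reads in mutants 1 to 3, so control 3 alone, at 3.60 RPM, was well above the 3 reads taken as the floor. That floor is 0.0987 to 0.126 RPM and covers counting error only. Sost fell short of the mean of 1 RPM and was left out of the test; with no filter its unadjusted p was 0.256. On the log2(RPM + 1) scale its change was -0.048 in litter 1 and -1.98 in litter 2, the latter resting on the 102 reads of control 3. A test of that difference takes its spread from litter 1 libraries of 0 to 3 reads, so none is read here. Mepe, another osteocyte gene, had 12 reads in control 3 and 0 in every other library, and Fgf23 had 0 to 3 reads in all of them. The part of osteocytes in control 3 was not tested.

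**Figure D2:**
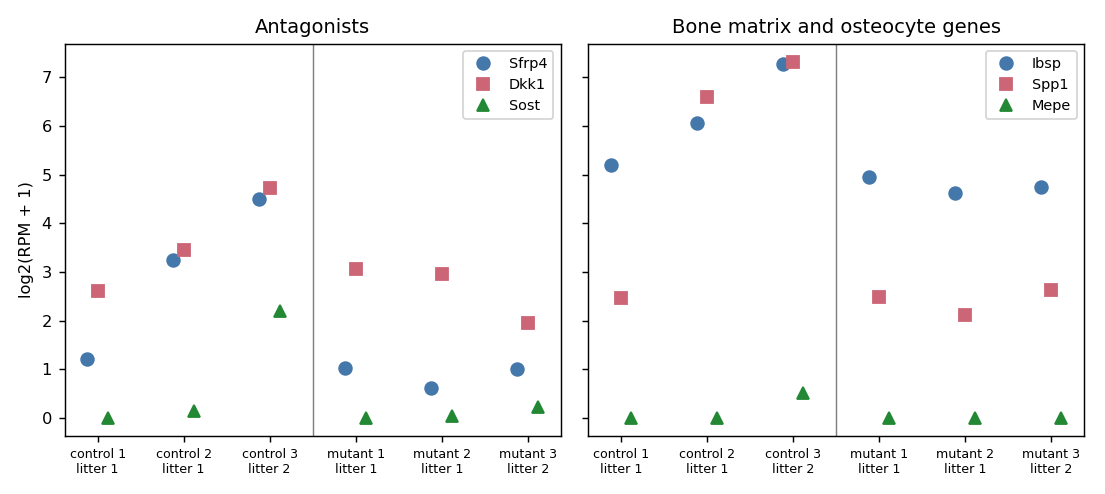
Levels as log2(RPM + 1) of Sfrp4, Dkk1 and Sost (left) and of the bone genes Ibsp, Spp1 and Mepe (right) in each library, with a line between controls and mutants. Control 3 is the highest library for all 6 genes, and control 1 lies near the mutants for Sfrp4, Spp1, Sost and Mepe. The bone genes shown were chosen after their values were seen. Others of the same list differ: in control 3 Phex was at 113 RPM against 387 to 725 RPM in litter 1, and Fgf23 had 0 reads.

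Dkk1, the best-known blocker of Lrp5 and Lrp6, was at 5.13, 10.003 and 25.6 RPM in controls 1 to 3 and at 7.39, 6.79 and 2.89 RPM in mutants 1 to 3. Control 3 was the highest and mutant 3, its littermate, the lowest, while the litter 1 mutants lay between the litter 1 controls. The log2 change over all libraries was -0.94 (SE 0.55, 95% interval -2.23 to 0.35, unadjusted p 0.13 by limma). It was -0.02 within litter 1 and -2.77 within litter 2, and the difference between the litters was -2.75 (SE 0.54, unadjusted p 0.00229, adjusted p 0.516 by limma with Benjamini-Hochberg). With 1 library left out the change ran from -1.43 without control 1 (unadjusted p 0.0252 by limma) to -0.375 without control 3 (0.401), and it was -0.59 without mutant 3 (0.346). Markers of odontoblasts and bone differed among themselves in control 3. Dmp1, which marks odontoblasts and osteocytes, was highest there, at 88.7 RPM against 5.33 to 18.9 RPM elsewhere. Dspp, the main odontoblast matrix gene, was at 817 RPM there against 4032 to 6872 RPM in litter 1 and 113 RPM in mutant 3, and Phex at 113 RPM against 387 to 725 RPM in litter 1 and 18.2 RPM in mutant 3. The sums of both lists in control 3, at 1760 RPM for odontoblasts and 1151 RPM for bone, lay inside the range of the other libraries.

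Dkk2, a Dkk relative that can act as antagonist or weak agonist depending on Kremen, was the member with a higher mean in mutants. It was at 55.2, 22.9 and 20.5 RPM in controls 1 to 3 and at 55.6, 60.3 and 39.8 RPM in mutants 1 to 3. Controls 2 and 3 were low, and control 1 stood level with mutant 1. The log2 change was 0.76 (SE 0.37, 95% interval -0.11 to 1.64, unadjusted p 0.0774 by limma), 0.68 within litter 1 and 0.92 within litter 2. With litter as a block the unadjusted p was 0.0421, where 2.02% of all genes were under 0.05, and without control 1 it was 0.00143 at a change of 1.20. Leaving out any other library gave an unadjusted p of 0.062 (without mutant 3) to 0.218 (without control 3, at a change of 0.51). Controls 2 and 3, low for Dkk2, were the libraries high for Sfrp4.

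Dkk3 was the steadiest member, ranging 1.43-fold over the 6 libraries. It was at 253, 244 and 196 RPM in controls 1 to 3 and at 178, 254 and 186 RPM in mutants 1 to 3, so the groups overlapped fully. Its log2 change of -0.17 had a 95% interval of -0.63 to 0.28 by limma. It ran from -0.33 (without mutant 2) to -0.08 (without mutant 1) as single libraries were left out, and it was -0.29 without control 3 and -0.11 without control 1 or without mutant 3.

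Among the Sfrp genes other than Sfrp4, the groups overlapped. Sfrp1 was at 202.5, 144 and 170.4 RPM in controls 1 to 3 and at 98.7, 106 and 199.8 RPM in mutants 1 to 3. Both litter 1 mutants were below both litter 1 controls, and the litter 2 mutant was above its control. The log2 change was -0.41 (SE 0.29, 95% interval -1.08 to 0.26, unadjusted p 0.195 by limma), with -0.73 in litter 1 and 0.23 in litter 2. Leaving out 1 library gave -0.73 without mutant 3 (unadjusted p 0.00771 by limma) and up to -0.22 without mutant 1 (0.495). Within litter 1 alone the unadjusted p was 0.0123 by limma, the smallest of the members there.

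Sfrp2, a close relative of Sfrp1, was at 111, 79.95 and 136 RPM in controls 1 to 3 and at 89.2, 38.9 and 158 RPM in mutants 1 to 3. Mutant 2 was the lowest library and mutant 3 the highest. The log2 change of -0.37 had a 95% interval of -1.49 to 0.75 by limma. It was 0.16 without mutant 2, -0.20 without control 3, -0.58 without control 2 and -0.84 without mutant 3.

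Sfrp5 was at 31.9, 46.1 and 289.8 RPM in controls 1 to 3 and at 28.4, 36.7 and 82.1 RPM in mutants 1 to 3. Control 3 was far above the rest, and both litter 2 libraries were above all of litter 1. The log2 change was -0.76 (SE 0.81, 95% interval -2.67 to 1.14, unadjusted p 0.376 by limma), and without control 3 it was 0.20. It was -1.37 without control 1, -1.20 without mutant 3 and -0.45 without mutant 1. The unadjusted p of Sfrp5 was 0.0619 with litter as a block and 0.051 with the replicate block, both by limma. Its change was -0.24 in litter 1 and -1.81 in litter 2, a difference of -1.56 (SE 0.40, unadjusted p 0.00762, adjusted p 0.716 by limma with Benjamini-Hochberg). Of the 3 libraries rich in enamel epithelium markers, control 3 and mutant 3 had the highest Sfrp5 and mutant 1, with the most of these markers, the lowest. The part of epithelium was not tested.

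Frzb, also called Sfrp3 and known from cartilage, was at 105, 54.5 and 49.6 RPM in controls 1 to 3 and at 42.0, 58.0 and 68.9 RPM in mutants 1 to 3. Control 1 was the highest library and the others overlapped. The log2 change of -0.25 had a 95% interval of -0.99 to 0.49 by limma. It was 0.08 without control 1, -0.06 without mutant 1, -0.45 without control 3, -0.38 without control 2 and -0.41 without mutant 3. The 5 cartilage markers summed to 169.7, 179 and 125 RPM in controls 1 to 3 and to 93.9, 108 and 153 RPM in mutants 1 to 3, highest in control 2. Col2a1, the cartilage collagen gene among them, was at 31.8, 19.3 and 15.0 RPM in controls 1 to 3 and at 8.49, 6.02 and 23.5 RPM in mutants 1 to 3, highest in control 1. The part of cartilage was not tested.

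**Figure D3:**
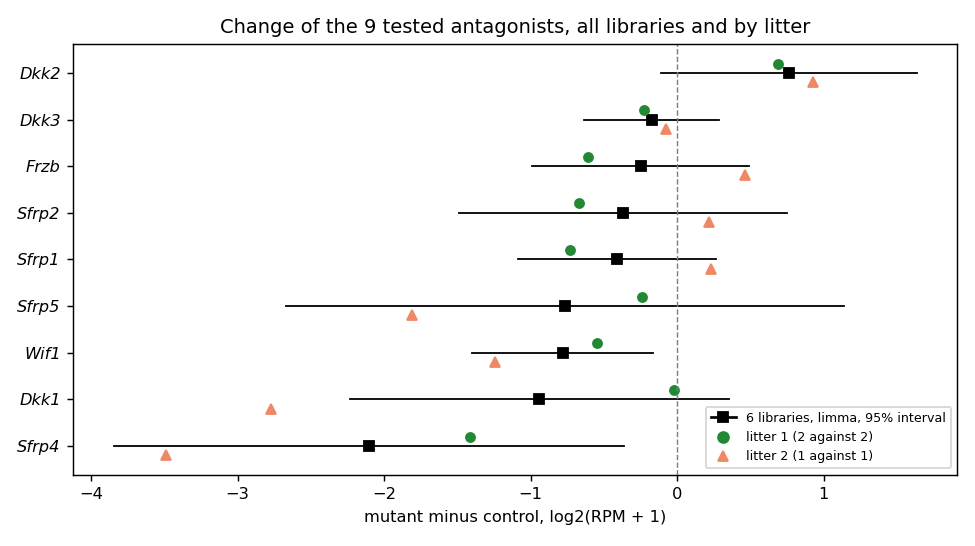
Mutant minus control change on the log2(RPM + 1) scale for the 9 tested antagonists: squares with 95% intervals from limma over 6 libraries, circles for litter 1 and triangles for litter 2 (1 library per genotype, no error). The intervals of Sfrp4 and Wif1 exclude 0 before adjustment, and for Sfrp1, Sfrp2 and Frzb the litters lie on opposite sides of 0.

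The litters were also set side by side. Sfrp2, Sfrp5 and Sost, 3 of the 10 members, were higher in both litter 2 libraries than in all 4 of litter 1, and 0 were lower in both. Litters did not overlap for 35.5% of all genes tested, Sost not among them. For Sost the call rested on 4 reads in mutant 3 against 3 reads in control 2, near the floor of 3 reads. Sfrp5 averaged 35.7 RPM in litter 1 and 186 RPM in litter 2, and Sfrp2 averaged 79.8 and 147 RPM. A fit with a litter-by-genotype term gave 0 members with an adjusted p under 0.05, as for 0.0% of all genes (limma with Benjamini-Hochberg). Dkk1, Sfrp1 and Sfrp5, 3 of the 9 tested, had an unadjusted p under 0.05 there, against 5.06% of all genes. For Sfrp1 it was 0.056 to 0.0732 under the 3 other scalings and 0.0612 with no filter, and 0.172, 0.0919 and 0.0715 without control 1, mutant 1 and mutant 2. The members counted changed with 1 library left out, where 1 residual degree of freedom remained, so those counts are not set against the 5.06%. The difference between the litters then ran from -3.17 to -2.33 for Dkk1, from -1.82 to -1.305 for Sfrp5 and from 0.71 to 1.20 for Sfrp1. Since each genotype has a single litter 2 library, the litter cannot be told apart from the animal or its dissection. The spread in the fit of all 6 libraries comes from litter 1, with 2 residual degrees of freedom.

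The rest of the Wnt pathway was read from 4 lists in the same fit, and 0 of their genes had an adjusted p under 0.05 (limma with Benjamini-Hochberg). Of the 8 canonical target genes, which are switched on where Wnt signalling is active, 8 were tested, 8 had a change below 0 and 0 had an unadjusted p under 0.05, with a median of -0.32 and a range of -0.61 to -0.04. The same count held under the 3 other scalings and was 6 without control 1 or without mutant 1 and 7 without control 3. Their median ran from -0.54 (without control 2) to -0.18 (without control 3) with 1 library left out. Axin2, the standard reporter of the pathway, was at 46.0, 27.4 and 38.3 RPM in controls 1 to 3 and at 29.2, 31.9 and 40.5 RPM in mutants 1 to 3, a change of -0.12 (SE 0.22). Lef1 measured 21.7 ± 8.47 RPM in controls against 17.5 ± 5.16 RPM in mutants. The most abundant target, Ccnd1, was at 146 ± 40.4 and 122 ± 48.7 RPM.

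Of 16 tested modulators outside the 10 members, 1 had an unadjusted p under 0.05 by limma, against 1.05% of all genes. Notum, a secreted enzyme that removes the lipid from Wnt ligands and so is itself an antagonist, was at 26.1, 47.6 and 110.8 RPM in controls 1 to 3 and at 13.1, 22.3 and 23.0 RPM in mutants 1 to 3. Every mutant was below every control, where groups did not overlap for 2.64% of all genes, and control 3 was again the highest. The change was -1.41 (SE 0.49, unadjusted p 0.0241, adjusted p 1.00 by limma with Benjamini-Hochberg), -1.002 in litter 1 and -2.22 in litter 2. Sostdc1, the closest relative of Sost and a dual BMP and Wnt antagonist of teeth, measured 84.4 ± 48.0 RPM in controls against 104 ± 52.4 RPM in mutants, and its groups overlapped. The R-spondin Rspo4, which enhances Wnt signalling, was the most abundant modulator, at 321 ± 197 and 322 ± 136 RPM. Its change was -0.61 in litter 1 and 1.60 in litter 2, so the level means hide opposite movements.

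Among 18 receptors and co-receptors, 6 had a change above 0 and 12 below, with a median of -0.10 that ran from -0.15 to -0.0030 with 1 library left out. The co-receptors bound by Dkk1 and sclerostin differed little: Lrp5 was at 96.1 ± 12.7 and 92.6 ± 17.0 RPM, Lrp6 at 90.7 ± 13.5 and 92.3 ± 10.2 RPM, and Lrp4 at 109 ± 20.9 and 103 ± 23.9 RPM in controls and mutants. Kremen1 was at 117 ± 27.9 and 105 ± 7.96 RPM. Kremen2, the other Dkk receptor, was at 15.8, 0.105 and 1.69 RPM in controls 1 to 3 and at 15.5, 13.8 and 30.5 RPM in mutants 1 to 3, a change of 2.42 (SE 0.91, unadjusted p 0.0317, adjusted p 1.00 by limma with Benjamini-Hochberg). Controls 2 and 3 were its low libraries. The epithelial gene Epcam was also lowest in these, at 3.53 and 14.7 RPM against 27.3 to 59.4 RPM elsewhere. Not all epithelial markers were low in control 3: Krt14 was at 990 RPM there against 81.5 RPM in control 2, and the 9 enamel epithelium markers summed to 39039 RPM in control 3, second to mutant 1, and to 2305 RPM in control 2, the lowest of all. The part of epithelium was not tested. The most abundant receptor, Fzd7, was at 155 ± 26.0 and 127 ± 18.4 RPM.

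Of the 13 tested Wnt ligands, 9 had a change above 0 and 4 below, with a median of 0.08. With 1 library left out that median ran from -0.12 (without control 2) to 0.43 (without control 3), and it was -0.03 without mutant 1, 0.32 without control 1 and 0.30 without mutant 2. In litter 1 alone it was 0.33. Wnt3 was the ligand with an unadjusted p under 0.05 (0.0404 by limma, adjusted p 1.00 with Benjamini-Hochberg), at 3.29, 0.14 and 0.53 RPM in controls 1 to 3 and 2.59, 3.36 and 5.41 RPM in mutants 1 to 3, again low in controls 2 and 3. Wnt5a, the most abundant ligand, was at 191 ± 49.3 and 170.1 ± 19.7 RPM.

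**Figure D4:**
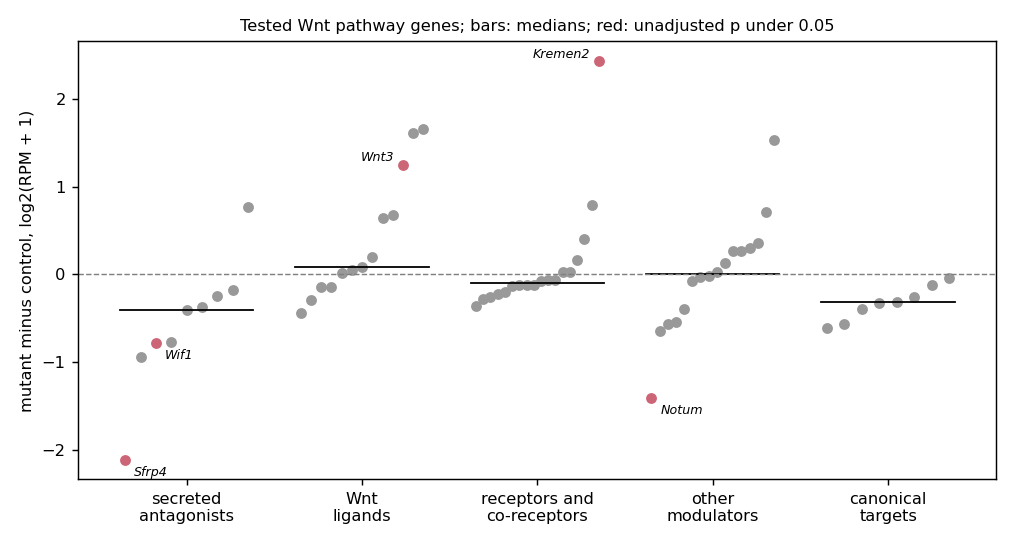
Mutant minus control change on the log2(RPM + 1) scale for each tested gene of the antagonists and of 4 other Wnt pathway lists, sorted within a list, with bars for medians and red for an unadjusted p under 0.05. The medians of the antagonists (-0.41) and of the canonical targets (-0.32) lie below 0, and Sfrp4, Wif1, Notum, Kremen2 and Wnt3 are marked.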

How the data were processed

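Libraries of poly(A) RNA were read on a NextSeq 500, per the labels' protocols. TopHat2 and build mm10 are named in the submitters' processing notes; the counting program and annotation are not given in the sources used here. The authors deposited 1 table of log2 values, called normalized RPKM. Raised as powers of 2, 99.99% of the values above a column's minimum were whole multiples, within 0.1, of 1 step shared by all genes of the column, which shows no division by gene length. The values were therefore treated as RPM, with that denominator inferred, and genes at the minimum (0.9 of a step) as 0 reads. Because the unit assumed in the planned test was not a log2 value, the test was run on log2(RPM + 1) of the linear values.

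The 14444 genes averaging 1 RPM or more over the 6 libraries were fitted with limma 3.58.1 in R 4.3.3 (lmFit, eBayes with trend, no covariate, two-sided, Benjamini-Hochberg over all genes tested), and checked on simulated data. Same-numbered columns were not taken as pairs in the main fit, and a replicate block served as an alternative. The correlations of their deviations from the group means across genes were -0.03, 0.75 and 0.50. Differently numbered columns were not compared, so these values cannot decide whether the columns are pairs. Litter comes from the labels and served as a block in an alternative. Exon lengths and gene positions are from GENCODE M21 (GRCm38), the build the notes name. The members, the 4 Wnt lists and the 12 marker lists were chosen with earlier results of these data known. Named were all members, listed Wnt genes with an unadjusted p under 0.05, the most abundant gene of each list, and fixed partners; Dmp1, Dspp, Phex, Col2a1, Epcam, Krt14, Ibsp, Spp1, Mepe and Fgf23 come from the marker lists and were chosen after their values were seen. Marker lists not described in the results (ligament, endothelium, perivascular, macrophage) had 0 genes with an unadjusted p under 0.05 and summed levels that overlapped between the genotypes. The muscle list had 0 genes above the filter and so none tested, and its summed levels overlapped too. A marker gene of another list is not reported here.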

Additional observations from a re-analysis of the deposited data

Results flagged for a closer look

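In litter 1 both mutants lay on the opposite side of both controls from where the litter 2 mutant lay against its control for 5 of the genes named, the antagonist Sfrp1 among them. For Sfrp1 the change in litter 2 minus that in litter 1 was 0.957 on the log2(RPM + 1) scale (unadjusted p 0.0383, and 0.056 to 0.0732 under the 3 other scalings; adjusted p 0.91 by limma with Benjamini-Hochberg). For the cartilage gene Col2a1 it was 2.28 (unadjusted p 0.00396, adjusted p 0.616 by limma with Benjamini-Hochberg). For the bone marker Phex it was -3.04 (unadjusted p 0.000371, adjusted p 0.501 by limma with Benjamini-Hochberg). For the co-receptor gene Lrp5 it was 0.654 (unadjusted p 0.072, adjusted p 0.91 by limma with Benjamini-Hochberg), and for Wnt5a 0.582 (unadjusted p 0.122, adjusted p 0.91 by limma with Benjamini-Hochberg). Over all tested genes, 18.2% showed such opposite movement.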

How the results depend on the processing

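With limma, 0 genes and 0 members had an adjusted p under 0.05 (Benjamini-Hochberg) in the genotype comparison in all fits of the 6 libraries and in the fit of litter 1; leaving out 1 library gave 0 to 1 genes (Spp1, without control 1) and 0 members. The count of members with an unadjusted p under 0.05, reported as 2, was 1 in litter 1 alone (Sfrp1) and 1 with voom (Wif1), and 0 to 4 with 1 library left out; it was 0 without control 3 or without mutant 1. With the replicate block, which uses the column numbers, it was 3 (Dkk2, Sfrp4 and Wif1), as with litter as a block, and 0 members passed adjustment. The count over all genes, reported as 152, was 344 with no filter, 292 with litter as a block, 524 with the replicate block and 316 in litter 1 alone, and 68 to 319 with 1 library left out. Sfrp4 kept its direction in 18 of 18 alternatives (-2.99 to -1.35) and Wif1 in 18 of 18 (-0.99 to -0.55), each with an unadjusted p under 0.05 in 13 by limma. Sfrp4 passed the filter on low values through its controls alone, so its counts here are a description and support nothing further.

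With 1 library left out the change ran from -0.84 to 0.16 for Sfrp2, from -1.37 to 0.20 for Sfrp5 and from -0.45 to 0.084 for Frzb. The difference between litters, with 0 members and 0 genes past adjustment in all fits of 6 libraries, gave 0 to 3 members and 0 to 310 genes with 1 library left out, where 1 residual degree of freedom remained; Dkk1 passed without control 1, and Dkk1, Sfrp4 and Sfrp5 without control 2. That difference ran from -0.38 to 0.86 for Dkk2 and from -0.10 to 0.41 for Dkk3 with 1 library left out. For Dkk3, reported as 0.15, it was -0.075 with median-of-ratios and -0.0059 with upper-quartile scaling; these scalings moved the median of all genes from 0.19 to -0.02 and 0.04. The cause was not tested for the others. Depth limits Sost most, since 3 reads are 0.0987 to 0.126 RPM.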
